A study of Arabidopsis thaliana with 4 samples.

Results

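The 7 genes described here encode NAC transcription factors of Arabidopsis thaliana in 2 related groups. The ATAF group holds ATAF1 (AT1G01720), ATAF2 (AT5G08790), ANAC032 (AT1G77450) and ANAC102 (AT5G63790), and the ANAC019 group holds ANAC019 (AT1G52890), ANAC055 (AT3G15500) and ANAC072 (AT4G27410, also called RD26). They were taken by locus, with earlier results of these data known. They make up 7 of the 101 loci that the RefSeq gene table names as NAC factors. They are 7 of the 25418 loci with a probe on the array. All 7 were well above background on all 4 arrays, as were 18412 genes in all. Wild-type seedlings of the ecotype Columbia-0, grown on peat pellets, were exposed for 30 min at 25 °C to (E)-2-pentenal, 3-hepten-2-one or crotonaldehyde at a nominal 10 µM. Each volatile evaporated from 3 µl of a 1 M solution in acetonitrile inside a 340 cm3 box, and the control seedlings received acetonitrile, the solvent. Age is not given in the labels. (E)-2-pentenal and crotonaldehyde are straight-chain unsaturated aldehydes, the first longer by 1 carbon, while the ketone 3-hepten-2-one is unsaturated as well. RNA pooled from at least 6 plants was hybridised to 1 array per group, so there was no replicate and no test could be made. A gene was called higher or lower where the arrays differed 2-fold or more.

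NAC proteins share a DNA-binding domain at their amino end and differ in the regulatory region that follows it. The ATAF group responds to wounding, drought, pathogens and reactive chemicals, and in Arabidopsis its members have been placed downstream of the GRAS protein SCL14 in the response that detoxifies xenobiotics and reactive carbonyls. The ANAC019 group is induced by drought, salt, abscisic acid and jasmonate, the last through the factor MYC2, and its members bind the promoter of the dehydration gene ERD1.

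The shoot markers RBCS1A, LHCB1.1, LHCB2.1 and RCA were well above background on all 4 arrays, as were 3 of 4 root markers, while the embryo genes CRA1 and OLE1 and the flower gene AG were not well above background in the acetonitrile control. The flower genes SEP3 and AP1 were well above background there, at levels of 0.0387 and 0.0603. The 3 root markers had control levels of 17.8 for PYK10, 0.0983 for CASP2 and 0.0188 for RHD6. The (E)-2-pentenal, 3-hepten-2-one and acetonitrile arrays shared 1 slide and scan, with 75th percentiles of the signal between 1518 and 1667. The crotonaldehyde array was on another slide with a scan of its own and a 75th percentile of 1048, so slide and treatment cannot be told apart in any comparison with it. Levels below are given as multiples of the array's own 75th percentile. They can be compared between arrays for a gene, but not between genes, which have different probes. The scanner software puts an error of about 10% on each of these spots, which makes 0.20 on the log2 scale for a difference between arrays. For 17 probes spotted 5 times, the log2 difference varied between repeat spots with an SD of 0.081 to 0.117. Both figures cover measurement within arrays only, not plants.

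By the probes used, the ATAF group rose between 10.0-fold and 27.4-fold after every volatile, and for each gene the treated arrays were within 2-fold of each other. ANAC102, a factor known from low-oxygen and high-light stress, had levels of 34.9 after (E)-2-pentenal, 36.4 after 3-hepten-2-one and 39.2 after crotonaldehyde, against 1.43 with acetonitrile. The 3 treated arrays lay close together and far above the control. These levels are 24.4-fold, 25.4-fold and 27.4-fold over the control, with log2 differences of 4.61, 4.67 and 4.78. ANAC102 ranked 47th of the 18412 genes from the highest difference after (E)-2-pentenal, 47th after 3-hepten-2-one and 37th after crotonaldehyde.

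ANAC032, a stress-induced factor that also acts on anthocyanin synthesis, had levels of 10.3 after (E)-2-pentenal, 12.4 after 3-hepten-2-one and 12.6 after crotonaldehyde, against 0.515 with acetonitrile. The control array was far below all 3 treated arrays. The folds were 20.0, 24.2 and 24.4. Its rank from the highest was 56, 52 and 42.

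ATAF1, induced by wounding and drought and known as a positive regulator of abscisic acid synthesis and of senescence, had levels of 15.1 after (E)-2-pentenal, 15.4 after 3-hepten-2-one and 18.3 after crotonaldehyde, against 1.51 with acetonitrile. The folds were 10.0, 10.2 and 12.1. ATAF2, which is induced by wounding and regulates genes of brassinosteroid catabolism, had levels of 93.3, 99.7 and 95.6 in the same order, against 8.53 with acetonitrile, or 10.9-fold, 11.7-fold and 11.2-fold. For both genes all treated arrays were about an order of magnitude above the control, and the treated arrays were within 2-fold of each other. Their log2 differences lay between 3.32 and 3.60, and those of ANAC032 and ANAC102 between 4.32 and 4.78, so that the group parted into a pair of lower and a pair of higher folds on each treated array.

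**Figure D1:**
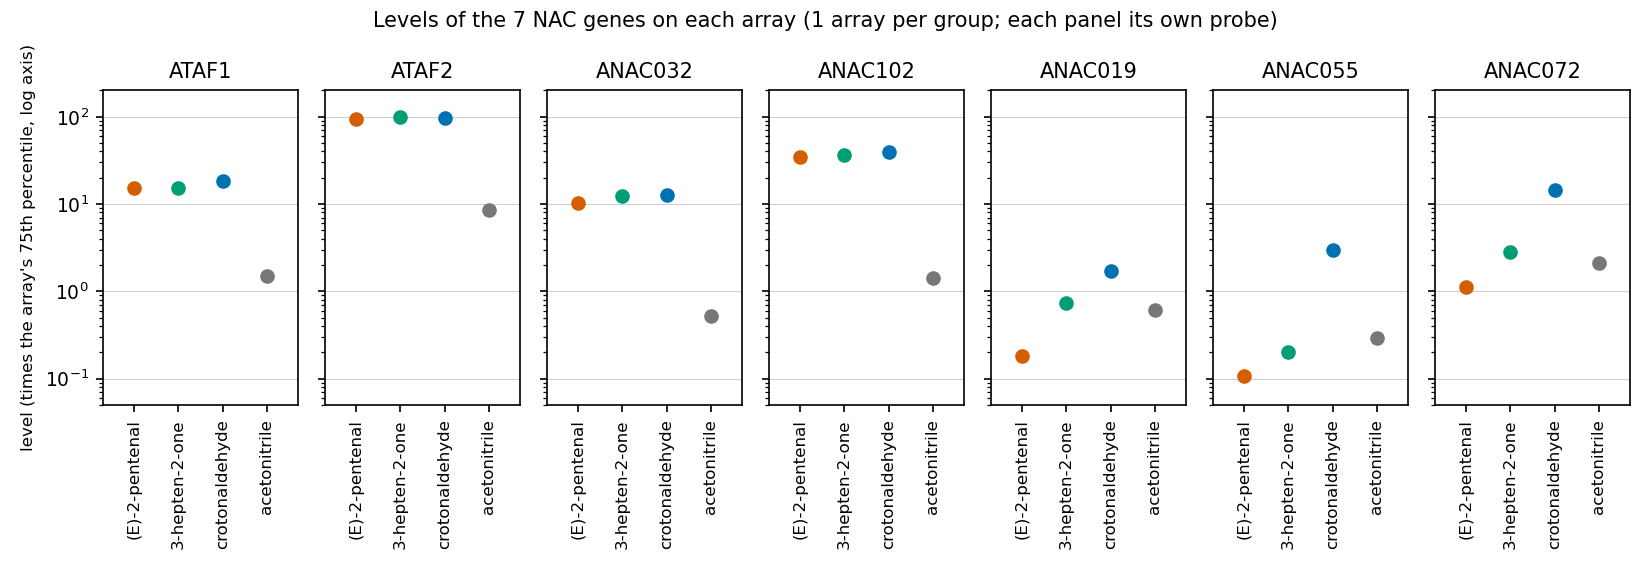
Level of each of the 7 NAC genes on the 4 arrays, as a multiple of the array's 75th percentile on a log axis, with 1 point per array and panel. In the 4 ATAF group panels the treated points sit together above the acetonitrile point, while in the 3 ANAC019 group panels they are spread, lowest after (E)-2-pentenal and highest after crotonaldehyde. Heights cannot be compared between panels.

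Of the ATAF group 4 of 4 were called higher in each comparison, where 4.5% of the 18412 genes were called higher after (E)-2-pentenal, 6.12% after 3-hepten-2-one and 8.89% after crotonaldehyde. The group's median log2 difference was 3.89, 4.07 and 4.10, against medians over all genes of -0.06, -0.07 and 0.01. The 3 comparisons share the acetonitrile array, so a low reading of a gene there would raise all of its folds together. ATAF1 had 3 probes, among them 1 with a control signal of 173 beside 2516 for the probe used, and their log2 differences ranged from 3.29 to 3.32 after (E)-2-pentenal, from 3.35 to 3.48 after 3-hepten-2-one and from 3.60 to 3.73 after crotonaldehyde. The 2 probes of ATAF2 gave 3.45 and 3.59, 3.55 and 3.67, and 3.49 and 3.51 after the same volatiles. The 2 probes of ANAC102 gave 4.61 and 4.55 after (E)-2-pentenal and differed as little after 3-hepten-2-one, but gave 4.78 and 4.24 after crotonaldehyde, where they disagreed by more than the software error. ANAC032 and each gene of the ANAC019 group had 1 probe.

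**Figure D2:**
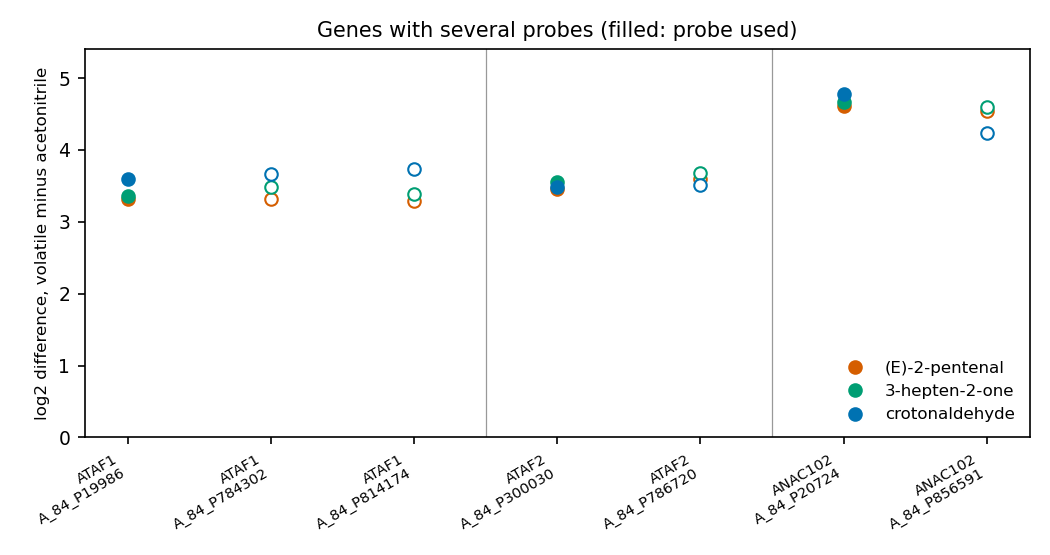
Log2 difference from acetonitrile for each probe of the 3 genes with several probes, with the probe used filled and the others open. All probes of ATAF1 and ATAF2 lie between 3.29 and 3.73, and the second ANAC102 probe falls to 4.24 after crotonaldehyde, against 4.78 for the first.

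The ANAC019 group took a different course after each volatile. ANAC055, a factor that jasmonate induces through MYC2, had levels of 0.107 after (E)-2-pentenal, 0.202 after 3-hepten-2-one and 3.00 after crotonaldehyde, against 0.293 with acetonitrile. Only the crotonaldehyde array was above the control. ANAC055 was 2.73-fold lower after (E)-2-pentenal and 10.3-fold higher after crotonaldehyde, while its log2 difference after 3-hepten-2-one, -0.53, did not pass 2-fold. It ranked 108th from the lowest after (E)-2-pentenal and 117th from the highest after crotonaldehyde.

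ANAC072, which was first found as a dehydration-responsive gene and acts in abscisic acid signalling, had levels of 1.13 after (E)-2-pentenal, 2.80 after 3-hepten-2-one and 14.4 after crotonaldehyde, against 2.12 with acetonitrile. The (E)-2-pentenal array was the lowest and the crotonaldehyde array stood well apart above the other 3. Its rise after crotonaldehyde was 6.78-fold. After (E)-2-pentenal its log2 difference of -0.90 fell just short of 2-fold, and after 3-hepten-2-one it was 0.40.

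ANAC019, a factor of drought and jasmonate responses, had levels of 0.184 after (E)-2-pentenal, 0.727 after 3-hepten-2-one and 1.69 after crotonaldehyde, against 0.615 with acetonitrile. It was 3.35-fold lower after (E)-2-pentenal, ranking 47th from the lowest of the 18412 genes, and 2.74-fold higher after crotonaldehyde. The 3-hepten-2-one and acetonitrile arrays were neighbours, with a log2 difference of 0.24 that is close to the software error. For all 3 genes the order of the treated arrays was the same, (E)-2-pentenal lowest, 3-hepten-2-one next and crotonaldehyde highest. The share of all genes with that order is not given here, and the crotonaldehyde array was on another slide.

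In counts, 2 of the 3 genes were called lower after (E)-2-pentenal, where 1.87% of all genes were. After 3-hepten-2-one none was called in either direction, where 6.12% of genes were called higher and 4.57% lower. After crotonaldehyde all 3 were called higher, where 8.89% of genes were called higher and 15.2% lower. The median over the 3 genes was -1.45, 0.24 and 2.76 on the log2 scale. With each array's median in place of its 75th percentile, 58.8% of the genes past 2-fold after crotonaldehyde were higher (2870 higher and 2014 lower). As scaled here the share was 36.9% (1637 and 2799). Median scaling adds 0.32 to every log2 difference of crotonaldehyde from the control. With the authors' scaled values, 46.0% of the genes past 2-fold after 3-hepten-2-one were higher, against 57.2%. The calls of the 7 NAC genes against acetonitrile were the same under all of these scalings.

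**Figure D3:**
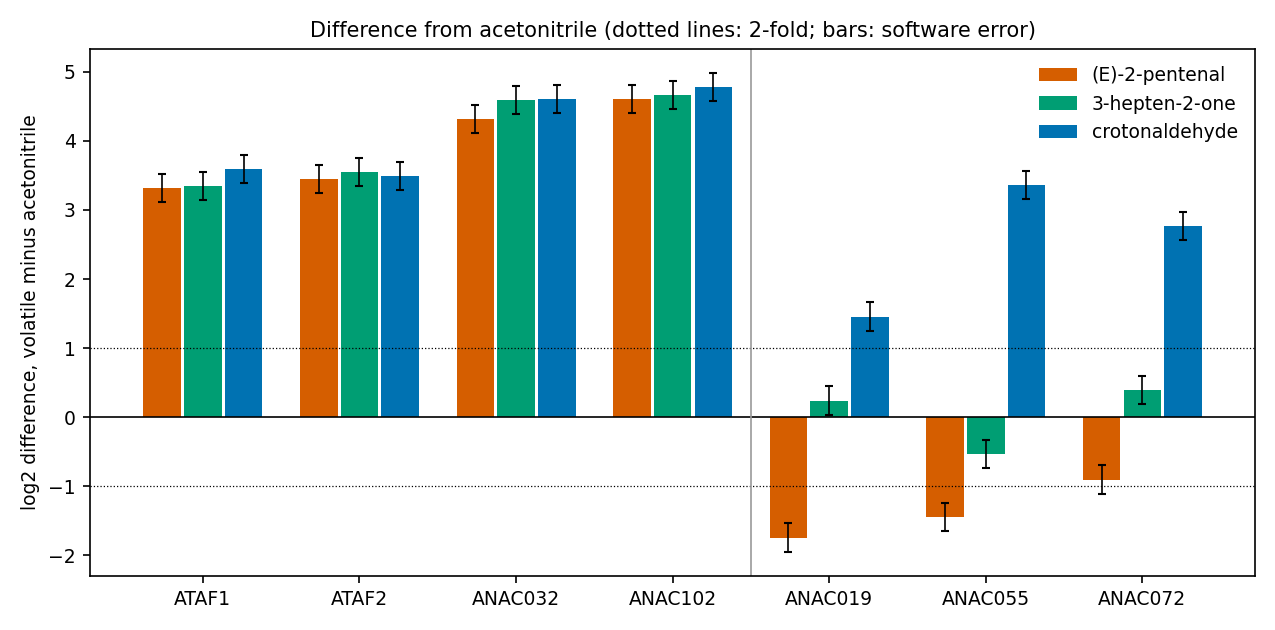
Log2 difference of each volatile from acetonitrile for the 7 genes, with error bars for the scanner software's error and dotted lines at 2-fold. The 12 bars of the ATAF group lie between 3.32 and 4.78, and the bars of the ANAC019 group run from -1.74 to 3.36.

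The volatiles were then set against each other at the same nominal dose and time, 3 pairs for each gene. In the ATAF group none of the 12 differences passed 2-fold. By the probes used, their log2 values lay between -0.29 and 0.27, each within 2 software errors of 0, and the greatest was 1.22-fold. Most genes did not pass 2-fold in these pairs either. Of all genes 3.86% were higher and 4.21% lower for 3-hepten-2-one over (E)-2-pentenal. The shares were 13.6% and 5.57% for (E)-2-pentenal over crotonaldehyde, and 15.8% and 9.73% for 3-hepten-2-one over crotonaldehyde. An ATAF1 probe with a dimmer signal gave -0.44 for (E)-2-pentenal over crotonaldehyde, which is past 2 software errors, and with median scaling ATAF1 reached -0.54 and ANAC032 -0.55. ATAF2 varied least, with a span of 0.095 between its highest and lowest treated array, and 97.6% of genes had a wider one. For ANAC102, ATAF1 and ANAC032 the spans were 0.17, 0.27 and 0.29, and the median gene had 0.65. By its second probe ANAC102 was 0.31 higher after (E)-2-pentenal and 0.36 higher after 3-hepten-2-one than after crotonaldehyde on the log2 scale, against -0.17 and -0.11 by the probe used. With 1 array each this shows how close the readings were, and not that the compounds act alike.

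In the ANAC019 group 8 of the 9 differences passed 2-fold. ANAC055 was 28.0-fold lower after (E)-2-pentenal, the longer aldehyde, than after crotonaldehyde, the shorter one, which placed it 5th from the lowest of 18412 genes. ANAC072 was 12.7-fold lower in that comparison and ranked 16th, and ANAC019 was 9.20-fold lower and ranked 25th, where 5.57% of genes were called lower and 13.6% higher. The share of genes with a wider span over the 3 volatiles was 0.505% for ANAC055, 1.69% for ANAC072 and 2.67% for ANAC019.

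The ketone lay between the aldehydes for each of the 3 genes. After 3-hepten-2-one ANAC019 was 3.96-fold higher than after (E)-2-pentenal and ANAC072 2.47-fold higher, while the log2 difference of ANAC055, 0.92, did not pass 2-fold. In that comparison 3.86% of genes were called higher and 4.21% lower. Against crotonaldehyde the 3-hepten-2-one levels were 14.8-fold lower for ANAC055, 5.15-fold lower for ANAC072 and 2.32-fold lower for ANAC019, where 9.73% of genes were called lower and 15.8% higher. With median scaling the higher share of the genes past 2-fold was 48.1% for (E)-2-pentenal over crotonaldehyde, against 71.0% as scaled here, and 41.2% for 3-hepten-2-one over crotonaldehyde, against 61.8%. That ANAC019 call was lost with the normexp background correction, which gave a log2 difference of -0.95. The difference between the ketone and (E)-2-pentenal was read within 1 slide, and each difference from crotonaldehyde between slides.

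Among markers of organs, PYK10, a root glucosidase, was 316-fold lower after crotonaldehyde, CASP2 2.56-fold lower and LHCB2.1 10.2-fold lower than in the control, where the ANAC019 group was higher. CASP1, not well above background on the crotonaldehyde array, was at least 3.88-fold lower there by an approximate bound. The other shoot and root markers did not pass 2-fold on that array. Their log2 differences were 0.21 for RBCS1A, 0.33 for RCA, -0.69 for LHCB1.1 and -0.21 for RHD6. After (E)-2-pentenal PYK10 was 2.12-fold lower, and after 3-hepten-2-one CASP1 was 2.12-fold lower, with no other shoot or root marker past 2-fold. Of the flower and embryo markers, AP1 was at least 7.24-fold lower after 3-hepten-2-one and at least 5.98-fold lower after crotonaldehyde, and AG at least 4.72-fold higher after 3-hepten-2-one and past 2-fold higher by its bound after crotonaldehyde. SEP3, CRA1 and OLE1 were not past 2-fold, by value or by bound, on any array. On the crotonaldehyde array the 4 shoot markers had a median log2 difference of -0.24 and the 3 measured root markers -1.36, the probes of PYK10 ranged from -8.59 to -5.77, and CASP2 did not pass 2-fold with normexp (-0.74) or quantile normalization (-0.83). In RNA pooled from plants, fewer cells of a type and less RNA per cell cannot be told apart. The part of these shifts in the NAC results was not tested.

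Of the other 94 NAC loci, 91 had a probe and 54 passed the background filter. After (E)-2-pentenal 9 of the 54 were higher and 2 lower, after 3-hepten-2-one 4 and 4, and after crotonaldehyde 8 and 16. The share of all genes called was 4.5% higher and 1.87% lower, 6.12% and 4.57%, and 8.89% and 15.2% in these comparisons. With normexp the genes lower after crotonaldehyde were 5 and with quantile normalization 10, and with normexp 1 was lower after each of the other volatiles. The medians of the 54 were -0.09, -0.03 and -0.30 on the log2 scale. With bounds, 23 of 65 were lower after crotonaldehyde, with a median of -0.61. The shares of all genes above do not include bounds. The highest mean over the 3 differences was that of ANAC004 (AT1G02230), with 5.60, 2.65 and 0.46 for (E)-2-pentenal, 3-hepten-2-one and crotonaldehyde. Its control level was 0.0290, and with normexp the first of these values was 4.51 and the second 1.83. ANAC053 (AT3G10500), a membrane-bound factor of the proteasome stress response, was even across the volatiles like the ATAF group but with smaller differences, at 2.02, 2.01 and 1.89. ANAC062 (AT3G49530), another membrane-bound factor, had 1.73, 1.31 and 1.23.

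Some relatives moved in opposite directions. ANAC061 (AT3G44350) had log2 differences of 3.73 after (E)-2-pentenal, -1.34 after 3-hepten-2-one and 1.81 after crotonaldehyde, and ANAC090 (AT5G22380) had 2.16, -3.19 and 0.50. For ANAC061 the lower value did not hold with normexp (-0.63). The lowest means were those of NAC1 (AT1G56010), a factor of auxin signalling in lateral root formation, ANAC083 (AT5G13180) and ANAC097 (AT5G50820), with -2.71, -2.29 and -2.29 after crotonaldehyde. For NAC1 the value was -1.88 by its second probe and -1.78 with normexp. Of these NAC genes, ANAC101 (AT5G62380), the vessel factor VND6, was the lowest on the crotonaldehyde array at -2.72, or -0.69 with normexp. ANAC057 (AT3G17730) was the lowest of them after (E)-2-pentenal at -1.24, which was -0.44 with normexp.

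The chromosome neighbours of a pair of members are NAC genes too. ANAC018 (AT1G52880), beside ANAC019, had log2 differences of -0.48, -0.44 and -0.29 for (E)-2-pentenal, 3-hepten-2-one and crotonaldehyde, and ANAC056 (AT3G15510), beside ANAC055, had 0.25, 0.60 and 0.12. None passed 2-fold. Probes of close relatives can bind each other's transcripts.

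**Figure D4:**
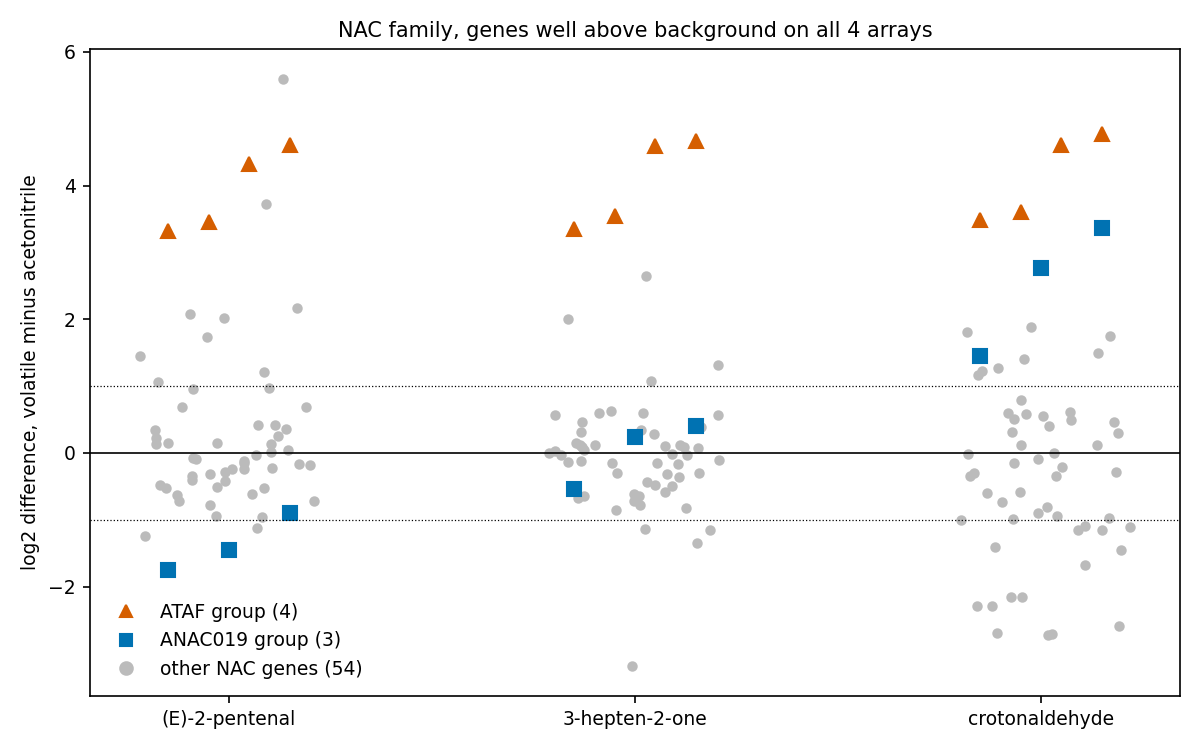
Log2 difference from acetonitrile of the 61 NAC genes well above background on all 4 arrays, with the ATAF group as triangles, the ANAC019 group as squares and the other 54 genes as grey points spread sideways for clarity; dotted lines mark 2-fold. The ATAF group lies at or above 3.32 after each volatile, with 2 other genes as high after (E)-2-pentenal, and the ANAC019 group lies between -1.74 and -0.90 after (E)-2-pentenal and between 1.46 and 3.36 after crotonaldehyde.

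Genes listed around the ATAF group in the xenobiotic response were largely higher. This list, like those that follow, was chosen with earlier results of these data known, so its shares are no test of the pathway. Of 19 measured genes 11 were higher after (E)-2-pentenal and none lower, 12 and 0 for 3-hepten-2-one, and 11 and 3 after crotonaldehyde, with medians of 2.01, 2.34 and 1.96. Of all genes 4.5%, 6.12% and 8.89% were higher in these comparisons and 15.2% lower after crotonaldehyde. The 3 lower calls were AKR4C9, ChlADR1 and ALDH2B7, at -1.19, -1.38 and -1.35 on the log2 scale. These calls became 0 with normexp and 2 with quantile normalization. With genes below background on 1 side set at their bound, the crotonaldehyde median was 0.99. Of the 5 listed regulators 1 passed 2-fold. That was GRX480, a glutaredoxin that binds TGA factors, which was 5.91-fold, 4.82-fold and 10.4-fold higher. SCL14 had log2 differences of 0.57, 0.50 and 0.31 for (E)-2-pentenal, 3-hepten-2-one and crotonaldehyde, and its bZIP partners TGA2, TGA5 and TGA6 lay between -0.43 and 0.17. Among the enzymes, the cytochrome P450 CYP81D11 was 34.3-fold, 79.1-fold and 33.5-fold higher. The glucosyltransferase UGT73B4 had log2 differences of 4.92, 5.64 and 4.35, from a control level of 0.0127, and with normexp these were 2.96, 3.57 and 2.51. The glutathione S-transferase GSTU7 was 14.0-fold, 15.9-fold and 14.2-fold higher, and its relative GSTU24 13.2-fold, 26.7-fold and 3.89-fold. Another glucosyltransferase, UGT74E2, was 11.2-fold, 29.3-fold and 5.64-fold higher. AER, a reductase of reactive alkenals, was 7.27-fold, 11.2-fold and 11.5-fold higher.

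The jasmonate and abscisic acid regulators upstream of the ANAC019 group changed in fewer cases. Of 15 measured genes 2 were higher after (E)-2-pentenal and none lower, 3 and 1 for 3-hepten-2-one, and 5 and 2 after crotonaldehyde, with medians of 0.04, -0.04 and 0.45. The lower calls, 6.67% and 13.3% of the list, were near the shares of all genes, 4.57% for 3-hepten-2-one and 15.2% for crotonaldehyde, while 4.5%, 6.12% and 8.89% of all genes were higher. ABI2, a phosphatase that damps abscisic acid signalling, was 3.48-fold, 2.09-fold and 3.27-fold higher, and its relative ABI1 2.36-fold, 2.46-fold and 2.06-fold. With normexp the log2 differences of ABI2 after 3-hepten-2-one and of ABI1 after crotonaldehyde were 0.99 and 0.89, under 2-fold. After 3-hepten-2-one ABF3, an abscisic acid response factor, was 2.49-fold higher and the kinase gene SNRK2.2 2.40-fold lower. After crotonaldehyde JAZ1, a jasmonate repressor that jasmonate itself induces, was 3.77-fold higher, SNRK2.3 3.15-fold higher and MYC4, a relative of MYC2, 2.80-fold lower by the brighter of its 2 probes (-1.48 and -0.58 on the log2 scale). MYC2 had log2 differences of 0.22, 0.18 and 1.24 for (E)-2-pentenal, 3-hepten-2-one and crotonaldehyde. It passed 2-fold on the crotonaldehyde array, as did all 3 genes of the ANAC019 group. Whether these rises are linked was not tested.

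Genes reported as targets of the ANAC019 group were within 2-fold of the control on most arrays at 30 min. The list does not mark which targets the group is reported to raise or to lower. Of 13 measured, none was called after (E)-2-pentenal or 3-hepten-2-one, and after crotonaldehyde 1 was higher and 4 lower, with medians of -0.15, 0.46 and -0.12. Of all genes 4.5% were higher and 1.87% lower after (E)-2-pentenal, and 6.12% and 4.57% after 3-hepten-2-one, so calls were few there as well. After crotonaldehyde 8.89% of all genes were higher and 15.2% lower, and the 1 higher call was lost with quantile normalization. The storage proteins VSP1 and VSP2 were 10.2-fold and 9.78-fold lower after crotonaldehyde. LKR, a lysine catabolism enzyme, was 4.00-fold lower by the brightest of its 3 probes, but the highest of them gave 0.18 on the log2 scale, and NYE2, of chlorophyll breakdown, was 3.75-fold lower, or -0.84 on the log2 scale with normexp. ERD1, the dehydration gene, had log2 differences of -0.02, -0.24 and 0.71. BSMT1, which methylates salicylic acid, was left out of these counts because it was not well above background after (E)-2-pentenal. It is named here after its values were seen, with a level of 0.714 after 3-hepten-2-one, against 0.0157 with acetonitrile. That is 45.4-fold, with a log2 difference of 5.51, or 3.90 with normexp.

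Of the reported targets of the ATAF group, 5 of 8 measured were lower after crotonaldehyde, an array on its own slide. The list does not mark which of them the factors are reported to raise or to lower. Of 8 measured genes 1 was higher and 1 lower after (E)-2-pentenal, 2 and 1 for 3-hepten-2-one, and 0 and 5 after crotonaldehyde, with medians of -0.61, -0.10 and -1.47. Of all genes 4.5%, 6.12% and 8.89% were higher in these comparisons, and 1.87%, 4.57% and 15.2% lower. Of the 5 lower calls there, that of TT8, an anthocyanin regulator, at -1.38 on the log2 scale, was lost with normexp (-0.23) and quantile normalization (-0.91). PDF1.2, a defensin, was 59.6-fold lower after (E)-2-pentenal and 32.6-fold lower after crotonaldehyde, with log2 differences of -5.90 and -5.03, or -4.55 and -3.80 with normexp. After 3-hepten-2-one it had -0.04. MYBL2, a repressor of anthocyanin synthesis, was 9.27-fold lower after crotonaldehyde, and the chloroplast development factors GLK2 and GLK1 were 6.36-fold and 2.94-fold lower. NIMIN1, a partner of the salicylic acid regulator NPR1, was 6.69-fold higher after (E)-2-pentenal and 3.11-fold lower after 3-hepten-2-one. NCED3, of abscisic acid synthesis, and TT8 were 2.24-fold and 2.19-fold higher after 3-hepten-2-one, and with normexp neither passed 2-fold (0.85 and 0.76). With the filter on only the 2 arrays compared, 1 of 13 was higher and 3 lower after (E)-2-pentenal, and 4 and 1 for 3-hepten-2-one. The shares of all genes above are for the 4-array filter, and none is given for the 2-array filter or for bounds. With genes below background on 1 side added at their bound, 9 of 13 were lower after crotonaldehyde and none higher. By these bounds DFR, an anthocyanin enzyme, was at least 124-fold lower there. ORE1, a senescence NAC factor, was 12.7-fold lower by its own undetected signal on that array, which is no strict bound.

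**Figure D5:**
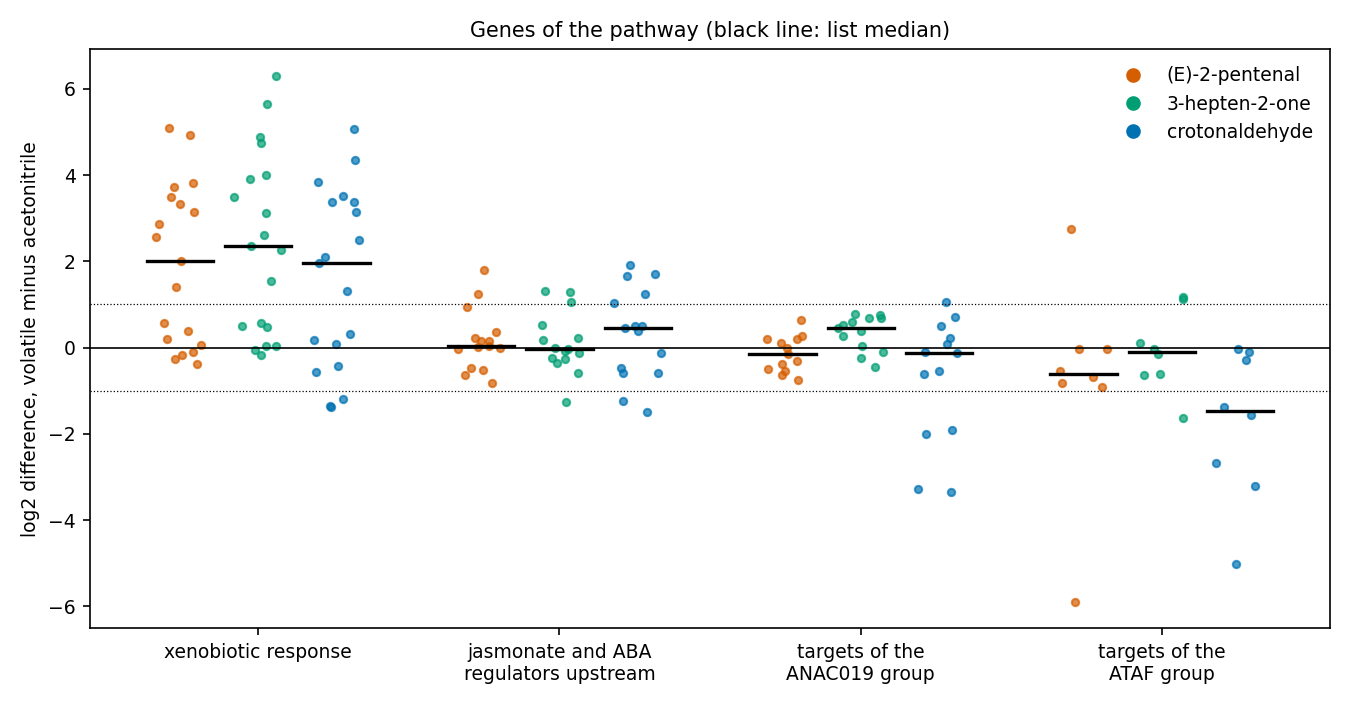
Log2 difference from acetonitrile of the measured genes of the 4 lists, coloured by volatile, with a black line at each list's median and dotted lines at 2-fold. The xenobiotic response has medians of 2.01, 2.34 and 1.96, the upstream regulators have medians of 0.04, -0.04 and 0.45 and reach from -1.48 to 1.91 after crotonaldehyde, and the ATAF targets have a median of -1.47 after crotonaldehyde.

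The genes most like each member over the 3 differences from acetonitrile were found by Euclidean distance on the log2 scale. By the probes used, ANAC032 and ANAC102 were each other's nearest genes, at 0.34. By the second probe of ANAC102, AT5G35320 was nearer, at 0.22, and ANAC032 came next at 0.43. ATAF1 was the second nearest to ATAF2, at 0.26, after AT5G12110 at 0.26, and the 4th by the second probe of ATAF2, at 0.43. The nearest to ATAF1 were PMZ (AT3G28210), a stress-associated zinc finger protein, at 0.19 and CYP89A5 (AT1G64950), a cytochrome P450, at 0.21, and by its other probes CYP89A5 came first. The next nearest to ANAC102 was the glucosyltransferase UGT73B3 (AT4G34131) at 0.41, and to ANAC032 AT5G35320 at 0.52. ANAC019 was nearest to MYB47 (AT1G18710), a MYB factor, at 0.32 and to AT2G22760 at 0.44. ANAC055 and ANAC072 had no gene as near, with AT1G62420 at 0.62 and UMAMIT33 (AT4G28040) at 0.83 for ANAC055, and PNC2 (AT5G27520), a peroxisomal nucleotide carrier, at 0.91 and the invertase A/N-InvC (AT3G06500) at 0.92 for ANAC072. Within the ANAC019 group the distances were 1.23 to 2.07, so the 3 genes differed in size, with the treated arrays in the same order.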

How the data were processed

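The authors deposited 1 scanner file per array, with spot intensity on a linear scale, made with Agilent Feature Extraction 10.10.1.1 per the file headers (9.1 per the submitters' processing notes), background-subtracted and not scaled between arrays. Flags in the same deposited files mark spots well above background and outliers. The authors' value table holds the same intensity times 1 constant per array (1.45 for (E)-2-pentenal, 1.38 for 3-hepten-2-one, 1.98 for crotonaldehyde and 1.38 for acetonitrile), so its scale is linear and uncentred; the rule behind the constants is not known.

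Here log2 of the processed signal minus log2 of each array's 75th percentile was taken, outlier spots left out, repeat spots averaged, and the brightest probe by mean scaled signal used per gene. RefSeq accessions were matched without versions to loci of a RefSeq gene table (TAIR10.1), 34476 of 43803 spots to 1 locus each. NAC loci were found by name, leaving out the NAC45/86-dependent exonucleases and AT5G52380, which carries VND6 as a synonym. Genes not well above background on 1 of the 2 arrays compared were given bounds. The dim side was set to its own signal or to that array's lowest detected signal, whichever was higher. Detection differed between spots, so these bounds are approximate. Samples were grouped by title. With 1 array per group no test was possible, and depth is limited by the number of arrays. Members and lists were chosen with earlier results of these data known.

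Besides the members, the genes named were the 2 nearest in pattern to each, the other NAC genes with the 4 highest and 3 lowest means and the extremes of each difference, and up to 4 genes per list and volatile; genes outside this rule (SCL14, GRX480, the TGA factors, MYC2, ERD1, DFR, ORE1, BSMT1, the neighbours and the remaining organ markers) were named after their values were seen. Alternatives were normexp (offset 50, limma 3.58.1, on the median spot signal), quantile and median scaling, the authors' values, the mean over probes, single other probes, no background filter, and rules of 1.5-fold and 4-fold. A filter on only the 2 arrays compared, and the nearest genes by the members' other probes, were added after the data were seen. The scaling, probe choice and differences from acetonitrile were tested on simulated data, with large changes that were equal for all volatiles. The background filter, bounds, pairs of volatiles, list counts and nearest genes were not tested in this way.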

Additional observations from a re-analysis of the deposited data

How the results depend on the processing

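Each group had 1 array, so no replicate could be left out. No paired analysis was possible because every group holds 1 sample, and the slide could not be fitted as a block because the crotonaldehyde slide holds 1 group. Against acetonitrile, the calls of all 7 NAC genes were the same under every alternative scaling, background correction and probe rule tried. Between volatiles 1 of their calls was lost, that of ANAC019 between 3-hepten-2-one and crotonaldehyde with normexp. The size rule of 4-fold left 0 NAC genes lower after (E)-2-pentenal and 0 higher after 3-hepten-2-one than after (E)-2-pentenal. Among other named genes ANAC057 changed sign after crotonaldehyde with normexp (0.0724, against -1.16); the cause was not tested.

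The background counts over all genes moved more. The 1.5-fold rule gave 1446 higher and 1153 lower genes after (E)-2-pentenal, 2130 and 2309 for 3-hepten-2-one, and 3480 and 4341 after crotonaldehyde. It gave 1776 and 1936 for 3-hepten-2-one over (E)-2-pentenal, 4029 and 2945 for (E)-2-pentenal over crotonaldehyde, and 4437 and 3891 for 3-hepten-2-one over crotonaldehyde. The 4-fold rule gave 311 and 33, 379 and 141, 408 and 985, 129 and 181, 765 and 129, and 1114 and 369 in the same order. Without the background filter, 1250 genes were higher and 932 lower after (E)-2-pentenal, 1914 and 1411 for 3-hepten-2-one, 3880 higher after crotonaldehyde, 1645 and 1238 for 3-hepten-2-one over (E)-2-pentenal, and 3393 and 4031 lower than after crotonaldehyde for (E)-2-pentenal and 3-hepten-2-one. Normexp left 213 lower genes for (E)-2-pentenal, 529 lower for 3-hepten-2-one and 1531 higher for (E)-2-pentenal over crotonaldehyde. Median scaling gave 2870 higher genes after crotonaldehyde, and 1994 and 3138 lower for (E)-2-pentenal and 3-hepten-2-one than after crotonaldehyde. The filter on the 2 arrays compared moved none of these counts by over 1.5 times. Of the counts for the gene lists and other NAC genes under an alternative, 417 stayed within 1.5 times and 123 did not. Genes near background, such as UGT73B4 and ANAC004, have imprecise folds.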
